A study of Homo sapiens with 4 samples.

Results

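Tandem FOXA2 sites are described here: vehicle ChIP-seq peaks on chromosomes 1 to 22 and X whose summit lies 1000 bp or less from the summit of another vehicle peak. Of 21308 vehicle peaks in all, 21065 lay on these chromosomes, and 1116 of them (5.30%) met the rule. They formed 536 runs, of which 500 held 2 summits, 28 held 3 and 8 held 4. Taken as neighbouring summits, the runs gave 580 tandem pairs. The members were chosen by the distance between vehicle summits, so their closeness is a description and not a result.

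The study compared PC3 cells that received GSK2879552 with PC3 cells that received vehicle. PC3 is an androgen-independent human prostate cancer cell line, and both groups were unmodified PC3 cells from this 1 line. Per the labels' protocols, cells in RPMI1640 with 5% charcoal-stripped serum received 50 µM GSK2879552 for 4 hours; the same text stands beside the vehicle samples, which were assigned by their agent label. FOXA2 chromatin immunoprecipitation and sequencing (ChIP-seq) gave 1 peak list per group, each named by both of the group's 2 sequencing lanes, which the labels call technical replicates. The series title, its design text and the sample titles name FOXA2 ChIP-seq, whereas the sample descriptions name ATAC-seq, an assay of open chromatin; the first was followed, and if the second were right every peak and fragment number here would measure accessibility and not FOXA2 binding. No spread between cultures was therefore measured and no test between the groups was possible; all differences are between these 2 libraries. The peak lists hold no expression data, so the cell line label was not checked against marker genes.

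FOXA2, a forkhead transcription factor, can bind its site on the face of a nucleosome and helps to open compact chromatin; it is best known in endoderm, liver and neuroendocrine prostate cancer. Regulatory elements bound by such factors often carry more than one site, and a ChIP-seq peak caller lists them as separate peaks when the signal falls back between them. GSK2879552 inhibits LSD1 (KDM1A), a demethylase that removes methyl groups from lysine 4 of histone H3 at enhancers and promoters. The 580 pairs ask whether neighbouring FOXA2 sites, which share one stretch of chromatin, were called together or singly after the inhibitor.

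After GSK2879552, tandem pairs divided almost equally between those called at both sites and those called at one. A vehicle peak is termed retained when a GSK2879552 interval overlapped it by at least 1 bp. Both peaks were retained in 251 pairs (43.3%, 95% interval 39.2 to 47.4), 1 peak in 257 pairs (44.3%, 40.2 to 48.5) and neither in 72 pairs (12.4%, 9.84 to 15.4). Of the 1116 tandem peaks, 724 were retained (64.9%, 62.0 to 67.7), beside a background of 62.0% of all 21065 vehicle peaks, so the share of tandem peaks retained was near that of the list as a whole. Intervals are exact (Clopper-Pearson) binomial intervals and cover counting error only.

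Part of the pairs lay where reads pile up over broad ground. Fragment numbers at each summit, and the background around it, were computed from the deposited fold and −log10 p. In 45 pairs at least 1 summit had a local background of 25 fragments or more, termed high background, and 41 of these 45 pairs kept both peaks (91.1%, 78.8 to 97.5). The retained share of other peaks at high background was not set beside this, so nothing particular to pairs is read from it. High-background positions held 66 of the 1116 tandem peaks (5.91%), against 60 of the 19949 other vehicle peaks (0.301%). Without them 535 pairs remained, with both peaks retained in 210 (39.3%, 35.1 to 43.5), 1 in 256 (47.9%, 43.6 to 52.2) and neither in 69 (12.9%, 10.2 to 16.04). Pairs with 1 retained peak then outnumbered those with both.

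Summits of a pair lay a median of 600 bp apart (interquartile range 447 to 791), and the closest were 157 bp apart. Bins of 100 bp held 1 pair at up to 200 bp, 20 pairs above 200 and up to 300 bp, and 64 to 102 pairs each above 300 bp, with the most between 500 and 600 bp. The intervals themselves were separated by a median of 322 bp (168 to 514) and at least 51 bp. Only 1 pair was closer than 175 bp, the shortest vehicle interval and the fragment length inferred from it, so at the other pairs no single fragment of that length could cover both summits. Neighbouring summits grew less frequent with distance, with 580 pairs within 1000 bp, 509 from there to 2000 bp and 365 in the next 1000 bp.

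**Figure D1:**
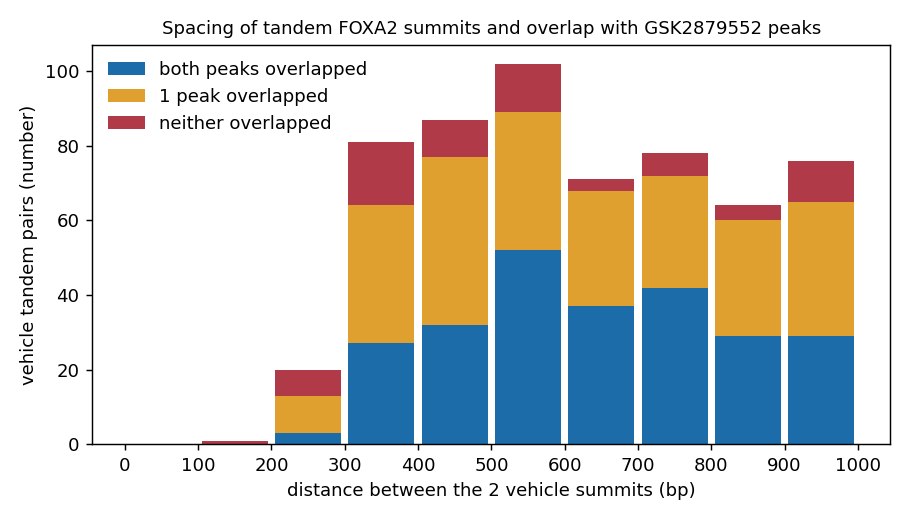
Distance between the 2 vehicle summits of each tandem pair (horizontal axis, bp, in bins of 100 bp) against the number of vehicle tandem pairs (vertical axis), with each bar split by whether both peaks, 1 peak or neither was overlapped by a GSK2879552 peak. The bin from 500 to 600 bp held most pairs, 102, and 52 of them kept both peaks.

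The closest pairs kept both peaks least often. Outside high background, both peaks were retained in 3 of 21 pairs up to 300 bp apart (14.3%, 3.05 to 36.3) and in 49 of 158 pairs above 300 and up to 500 bp (31.01%, 23.9 to 38.8). The share was 94 of 195 pairs above 500 and up to 750 bp (48.2%, 41.0 to 55.5) and 64 of 161 pairs above 750 bp (39.8%, 32.1 to 47.8). Strength moved with spacing: the median stronger and weaker summits had 16 and 13 vehicle fragments up to 300 bp, 25.5 and 17 above 300 and up to 500 bp, 28 and 18 above 500 and up to 750 bp, and 26 and 19 beyond. Its part in the lower share of close pairs was not tested. Very close sites can also be merged into 1 interval by the caller and are then not counted as pairs. The 3 pairs up to 300 bp apart with both peaks retained included those 279 bp apart on chromosome 4 and 286 bp apart on chromosome 3. In each of these a common GSK2879552 interval overlapped both vehicle peaks.

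At the limit of the rule, pairs just inside kept both peaks less often than neighbours just outside. The widest pairs inside it were 1000, 999 and 999 bp apart, on chromosomes 7, 1 and 7, and the nearest outside were each 1001 bp apart, on chromosomes 8, 18 and 18; all 6 kept 1 peak of 2. Of 76 pairs above 900 and up to 1000 bp, 29 kept both peaks, 36 kept 1 and 11 kept neither, and of 60 neighbours above 1000 and up to 1100 bp, 32 kept both, 24 kept 1 and 4 kept neither. These are shares of 38.2%, 47.4% and 14.5% inside and of 53.3%, 40.0% and 6.67% outside. They rest on few pairs, with high background included and strength not compared, so no step at the limit is read from them.

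Tandem partners mostly differed in the number of fragments at their summits. Outside high background the weaker summit had a median of 0.739 times the fragments of the stronger (interquartile range 0.593 to 0.863), at median numbers of 18 and 26 vehicle fragments. Ordering each pair by fragments holds this ratio at 1 or below. Counting error was not separated from a difference between the sites. Across these 535 pairs the fragments of the stronger and the weaker summit correlated with a Spearman rho of 0.55. Ordering each pair into a larger and a smaller number makes these correlate by itself, and random pairs were not set beside it. The value is a description only, as both summits also share a library and lie close together. Pairs that kept both peaks had medians of 32.5 fragments at the stronger and 23 at the weaker summit. Pairs that kept 1 peak had 25 and 16, and pairs that kept neither had 17 and 13.

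**Figure D2:**
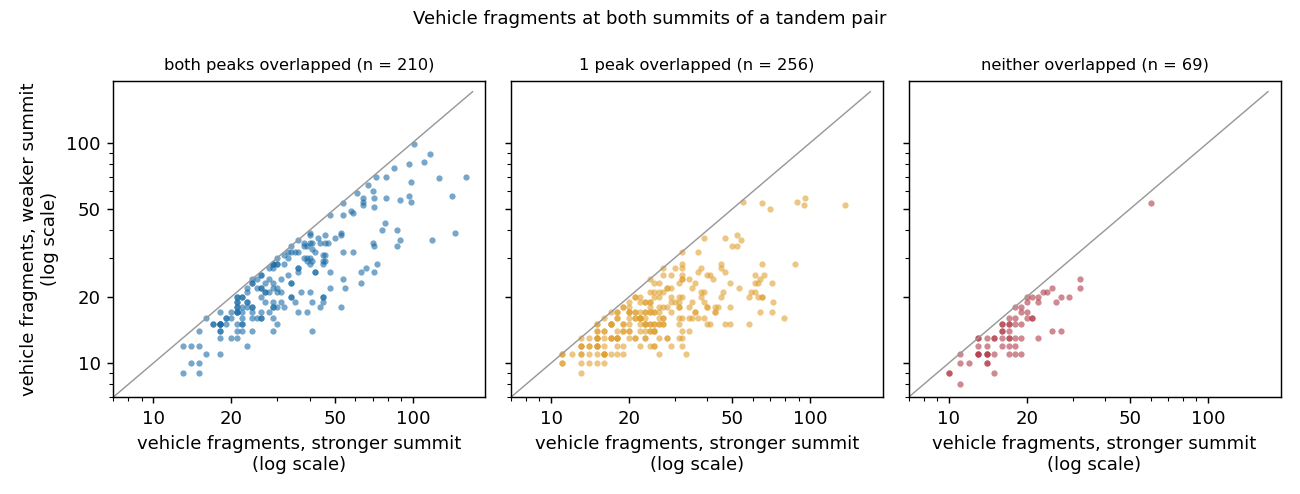
Vehicle fragments at the stronger summit (horizontal axis, log scale) against those at the weaker summit (vertical axis, log scale), 1 point per tandem pair outside high background, in separate panels for pairs with both peaks, 1 peak or neither overlapped by a GSK2879552 peak. The line marks equal numbers. Pairs with neither peak overlapped sit low on both axes, at medians of 17 and 13, and pairs with 1 peak overlapped reach farther below the line than those with both.

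When a single peak of a pair was retained, it was usually the stronger one in vehicle. The stronger peak was retained in 468 of 580 pairs (80.7%, 77.2 to 83.8) and the weaker in 291 (50.2%, 46.0 to 54.3). Median vehicle fragments were 27 at the stronger and 18.5 at the weaker summits. The background was 62.0% of all vehicle peaks. Other vehicle peaks outside high background were retained at 58.9% for 16 to 20 fragments and at 83.5% for 21 to 30. Retention thus rose with strength outside pairs too, and nothing particular to pairs is read from these shares. Among the 257 pairs with 1 retained peak, the stronger was the retained one in 217 (84.4%, 79.4 to 88.6) and the weaker in 40, of which 5 had equal fragment numbers and were ordered by −log10 p. Position within the pair showed no such split, since the peak with the lower coordinate was the retained one in 133 of the 257 (51.8%, 45.5 to 58.0).

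In pairs with 1 retained peak, the stronger was the retained one more often the more unequal the partners were. Outside high background and among pairs with 1 retained peak, this was the stronger in 57 of 58 pairs whose weaker summit had at most 0.5 times the fragments of the stronger (98.3%, 90.8 to 99.96). It was the stronger in 70 of 78 pairs above 0.5 and up to 0.7 (89.7%, 80.8 to 95.5), and in 53 of 67 pairs above 0.7 and up to 0.85 (79.1%, 67.4 to 88.1). Between 0.85 and 1 it was the stronger in 36 of 53 pairs (67.9%, 53.7 to 80.1). Retention also rose with fragments at other vehicle peaks outside high background, from 23.1% at 10 to 12 fragments to 98.1% at 31 to 50. Nothing particular to pairs is read from this order.

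Weaker peaks with a retained partner were retained more often, and they were also stronger. Outside high background it was retained in 210 of 426 pairs whose stronger peak was retained (49.3%, 44.5 to 54.2), against 40 of 109 pairs whose stronger peak was not (36.7%, 27.7 to 46.5). The weaker summits of the first kind had a median of 19 vehicle fragments and those of the second 14. Within ranges of equal strength the difference went both ways. Weaker summits of 13 to 16 fragments were retained in 33 of 107 pairs with a retained partner (30.8%, 22.3 to 40.5) and in 16 of 43 pairs without (37.2%, 22.98 to 53.3). For 17 to 22 fragments these were 58 of 125 (46.4%, 37.4 to 55.5) and 11 of 27 (40.7%, 22.4 to 61.2). At 7 to 12 fragments they were 10 of 41 (24.4%, 12.4 to 40.3) and 10 of 34 (29.4%, 15.1 to 47.5). From 23 fragments on they were 109 of 153 (71.2%, 63.4 to 78.3) and 3 of only 5 pairs. The share was higher with a retained partner in the upper 2 ranges and lower in the other 2, and the intervals overlapped in all 4, which does not show that the shares are equal.

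The pairs named next were ranked by −log10 p and not by fragments, within each class and outside high background: by that of the weaker peak where both or neither peak was retained, and by that of the uncalled peak where 1 was. Among the 10 highest-ranked pairs with both peaks retained, outcomes differed between loci. At chr10:68109469-68109864 and its neighbour chr10:68110363-68110785, 893 bp apart by summit, GSK2879552 gave 53 and 83 fragments, against 89 and 117 in vehicle. On chromosome 8, chr8:129209226-129209521 and chr8:129209852-129210193 had 46 and 45 fragments in GSK2879552, against 72 and 70 in vehicle. In both pairs each site was lower in GSK2879552, and on chromosome 8 the 2 sites were lower by nearly the same factor, with depth-scaled log2 ratios of -0.65 and -0.64.

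A further 2 of the 10 were lower mainly at one site. The pair chr8:132928269-132928613 and chr8:132928734-132929090 had 57 and 23 fragments in GSK2879552, against 64 and 54 in vehicle, so that a pair of near-equal sites became a strong and a weak one, at log2 ratios of -0.17 and -1.23. At chr9:114111123-114111423 and chr9:114112029-114112436, GSK2879552 gave 30 and 43 fragments, against 53 and 54 in vehicle. Here too the lower number stood mainly at one site.

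On chromosome 3, chr3:101644325-101644839 and chr3:101645374-101645739 had 112 and 37 fragments in GSK2879552, against 141 and 57 in vehicle. The pair chr21:16964834-16965139 and chr21:16965340-16965667 had 37 and 43 in GSK2879552, against 39 and 53 in vehicle. Both pairs were lower at each site, and the stronger site stayed the stronger.

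In the remaining 4 of the 10 pairs at least 1 site had more fragments in GSK2879552 than in vehicle. Their vehicle backgrounds were 5.65 to 11.3 fragments, and those of the other pairs among the 10 were 2.98 to 8.09. The part of background in these outcomes was not tested. Whether these positions lie in repeats or near centromeres was not examined, as no hg19 annotation was used. The first of the 4 by rank, chr10:42408129-42408455 and chr10:42409109-42409499, had 103 and 105 fragments in GSK2879552, against 98 and 101 in vehicle. At chr4:68264283-68264992 and chr4:68265189-68265747 the numbers were 84 and 90 in GSK2879552, against 80 and 97 in vehicle. The pair chr6:61913299-61913616 and chr6:61913999-61914319 had 53 and 62 in GSK2879552, against 71 and 51 in vehicle, turning the order of its sites round. At chr8:43793667-43794319 and chr8:43794696-43794975 the numbers were 95 and 70 in GSK2879552, against 98 and 66 in vehicle.

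**Figure D3:**
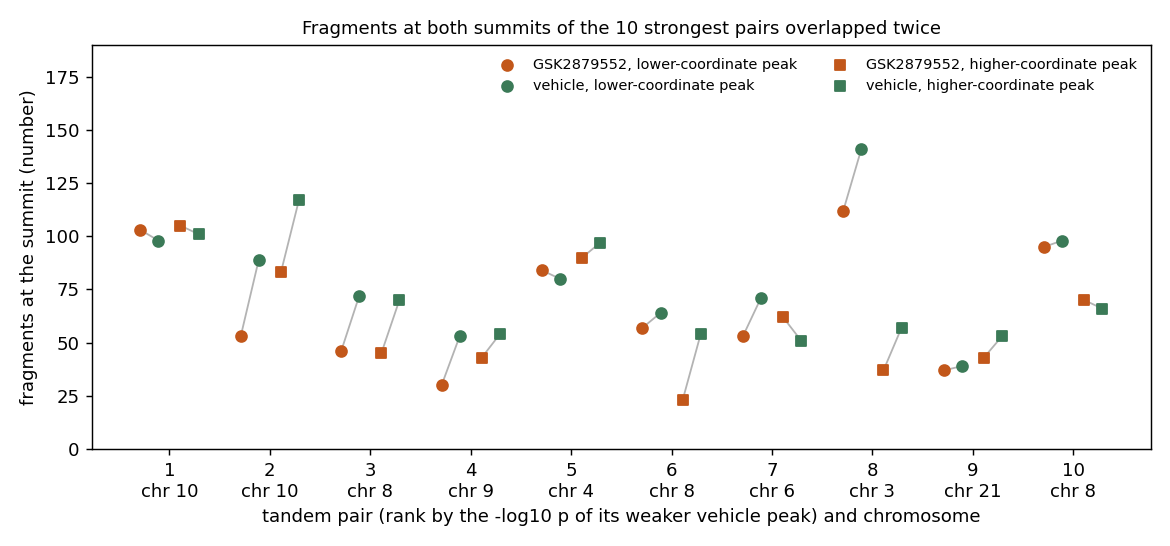
Fragments at the summit (vertical axis, number) for the 10 tandem pairs outside high background with both peaks overlapped and the highest −log10 p at their weaker vehicle peak (horizontal axis, rank and chromosome). Circles are the lower-coordinate and squares the higher-coordinate peak, with the GSK2879552 library left of the vehicle library and a grey line joining the values of 1 peak. Values range from 23 to 112 in GSK2879552 and from 39 to 141 in vehicle, and in 5 of the peaks, at ranks 1, 5, 7 and 10, the GSK2879552 value is the higher.

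Pairs that kept 1 peak included sites of high −log10 p with no call beside a retained neighbour. At chr10:36918491-36918771 no GSK2879552 peak was called where vehicle had 54 fragments, while the neighbour 785 bp away, chr10:36919222-36919609, had 79 fragments in GSK2879552 and 89 in vehicle. At chr10:54212404-54212719 a site with 50 vehicle fragments was not called, beside chr10:54211590-54211926 with 44 fragments in GSK2879552 and 70 in vehicle. On chromosome 2, chr2:19152983-19153233 with 34 vehicle fragments was not called, beside chr2:19152030-19152325 with 34 in GSK2879552 and 52 in vehicle. In these 3 pairs the weaker site was the one without a call.

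In the other 3 of the 6 pairs whose uncalled site had the highest −log10 p, the uncalled site was the stronger. At chr4:118321289-118321570, with 26 vehicle fragments, no peak was called after GSK2879552, whereas its weaker neighbour chr4:118321678-118321864, 404 bp away, had 11 fragments in both libraries. At chr8:17693702-17693943 the uncalled site had 23 vehicle fragments and its retained neighbour, chr8:17694269-17694477, had 13 in both libraries. The third, chr19:5608290-5608593, had 32 vehicle fragments and no call, beside chr19:5607433-5607712 with 30 fragments in GSK2879552 and 28 in vehicle. The 3 retained neighbours had about the same number of fragments in both libraries. By fragments instead, the highest uncalled site was chr4:49155569-49155753, named after its values were seen, with 56 in vehicle over a local background of 18.6.

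Pairs with neither peak retained had the lowest medians of the 3 classes, 17 and 13 fragments. The first by −log10 p of the weaker peak, chr7:111169623-111169864 and chr7:111170121-111170405, had 21 and 24 vehicle fragments, with no GSK2879552 summit closer than 120717 bp. The pair chr2:168365302-168365522 and chr2:168366239-168366456 had 25 and 22 vehicle fragments, and chr4:152931324-152931553 and chr4:152931930-152932204 had 18 each. Further pairs of this kind lay at chr17:43058693-43058927 and chr17:43059016-43059312 with 20 fragments each, and at chr5:33312591-33312804 and chr5:33313427-33313647 with 22 and 20. The sixth, at chr20:49038905-49039127 and chr20:49039733-49039926, had 17 and 19. By fragments instead, the highest of this class outside high background was at chr4:49122102-49122361 and chr4:49122443-49122637, a pair named after its values were seen, with 60 and 53 vehicle fragments over local backgrounds of 23.99 and 24.01. Over all 72 such pairs the nearest GSK2879552 summit was a median of 31278 bp away, and it lay within 1 kb of either site in 8 pairs and within 10 kb in 22. Most of these pairs therefore had no GSK2879552 summit within 10 kb. This distance was not computed for other vehicle peaks, so nothing particular to these pairs is read from it.

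An uncalled site is one without a peak, not one shown to be unbound. For 256 pairs outside high background that kept 1 peak, the GSK2879552 background at the retained site stood in for the uncalled one. A median of 10 fragments (9 to 12) would there reach 4.49, the lowest −log10 p among GSK2879552 peaks, against the median of 17 vehicle fragments that the uncalled sites had. The caller also asks for a minimum width, so a summit above 10 fragments may still go uncalled and this number is no bound.

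The longest runs lay on high or raised background. Of the 8 runs of 4 summits, 7 were at high background, and the eighth, chr1:121354233-121356355, had a vehicle background of up to 21.4 fragments. That run had 73, 61, 69 and 54 fragments in GSK2879552, against 60, 70, 79 and 56 in vehicle, and all 4 peaks were retained. The run with the highest summed −log10 p, chr19:27731889-27734006, had 277, 188 and 185 fragments in GSK2879552 at its first 3 summits, against 276, 188 and 180 in vehicle, and its last summit, with 104 in vehicle, was not retained. The next runs by this sum were chr10:42597411-42600479 and chr2:92306716-92308699, with all 4 peaks retained in each. The run chrX:58578957-58581669 stood apart, and is named after its values were seen: none of its 4 summits was overlapped, with 66, 60, 70 and 57 vehicle fragments over a background of up to 32.02, and 1 GSK2879552 peak lay between them. Fragment numbers in the other runs of 4 were close in the 2 libraries. Repeats and centromeres were not looked up for the runs either. Among the 20 runs of 3 outside high background, 41 of 60 peaks were retained, and 8 runs kept all 3.

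In 18 of the 251 pairs with both peaks retained, a common GSK2879552 interval overlapped both vehicle peaks. Their summits were a median of 375.5 bp apart (279 to 964), and 1 of the 18 was at high background. At chr4:167203272-167203536 and chr4:167203599-167203861, for example, the GSK2879552 library had a single partner peak with 18 fragments, against 31 and 21 at the 2 vehicle summits. Both sites are counted as retained at this pair although 1 peak was called. Some of the 18 still had a separate partner peak at each site. At chr7:157940352-157940586 and chr7:157940777-157941322, for example, the partner summits were 728 bp apart.

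The GSK2879552 list held fewer tandem pairs of its own. The same rule gave 330 pairs and 626 tandem peaks in the GSK2879552 list (4.28% of its 14642 peaks on these chromosomes), against 580 pairs and 1116 peaks (5.30%) in vehicle. The ratio of pairs was 0.569 (0.496 to 0.652, treating the counts as independent), and the ratio of list lengths was 0.695. With vehicle held to the 14642 peaks of highest −log10 p, as many as GSK2879552 had, the direction turned round, to 330 pairs in GSK2879552 against 278 in vehicle, a ratio of 1.19. With a common limit on −log10 q the ratio stayed below 1, at 0.537 for a limit of 5 and 0.456 for a limit of 10. The direction of the difference in pairs thus depends on how the lists are made comparable.

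Of the 330 GSK2879552 pairs, 231 (70.0%) matched a vehicle tandem pair and 39 (11.8%) lay within 1 vehicle interval that had been called as a single peak. A further 11 joined peaks whose vehicle summits were farther apart. In 43 pairs 1 peak had no vehicle counterpart, and in 6 neither had. Counted as single peaks, 89.3% of all GSK2879552 peaks on these chromosomes overlapped a vehicle peak. That share counts peaks and not pairs, so it cannot be set directly against the shares of pairs.

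Spacing can be compared only where both sites have a partner peak. A partner must overlap its vehicle peak, so that the choice of these pairs itself limits how far spacing can change, and the values are a description. Over 235 pairs with a mutual best partner at each site, summits lay a median of 641 bp apart in GSK2879552 and 634 bp apart in vehicle. The difference, GSK2879552 minus vehicle, had a median of 7 bp (interquartile range -24 to 46), and it was within 50 bp for 145 pairs (61.7%) and over 200 bp for 7. The site with more fragments was mostly the same in both libraries. Outside high background the vehicle order held in 138 of 194 pairs (71.1%), 9 had equal numbers in GSK2879552 and 47 were turned round. Among the 64 pairs that differed at least 1.5-fold in vehicle, the order held in 59, was equal in 1 and was turned round in 4.

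Retained tandem sites carried fewer fragments after GSK2879552. Outside high background, 647 tandem peaks had a mutual partner, with a median of 21 fragments (15 to 30) in GSK2879552 and 26 (19 to 39) in vehicle. The median depth-scaled log2 ratio was -0.30 (interquartile range -0.55 to -0.05). It was -0.33 (-0.59 to -0.09) at the 12270 other partnered peaks outside high background. With high background included, 534 of 709 tandem peaks had fewer fragments in GSK2879552 (75.3%, against a background of 78.2% of all partnered peaks), 36 had equal and 139 more. At least 2-fold fewer fragments were found at 18 tandem peaks (2.54%, background 4.07%) and at least 2-fold more at 0 (background 0.0460%). These shares were near the background or below it.

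The size of the difference moved with the local background. At the 62 partnered tandem peaks of high background the median was 156 fragments in GSK2879552 and 166.5 in vehicle, with a median log2 ratio of -0.03 (-0.09 to 0.01). At 56 tandem peaks with a background from 8 to under 25 it was -0.07 (-0.25 to 0.00), and at 591 below 8 it was -0.32 (-0.59 to -0.07), against -0.34 (-0.59 to -0.09) at 12184 other peaks below 8. The limit of 8 was chosen after the data were examined. How duplicate reads were handled is not given in the sources used here, and its part in the small differences at dense positions was not tested.

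Taken singly, 76.4% of the 647 partnered tandem peaks outside high background had fewer fragments in GSK2879552. In 121 of the 194 pairs outside high background with a partner at each site both had fewer fragments in GSK2879552, in 58 one had, and in 15 neither had; at such a share of single sites many pairs are lower at both, so nothing about pairs is read from this count. The log2 ratios of the 2 sites correlated with a Spearman rho of 0.27 and a Pearson r of 0.26 over these 194 pairs, a description only, as the sites share both libraries and lie close together. The median absolute difference between the 2 log2 ratios was 0.27, and it was above 1 in 4 pairs. Stronger sites had a median log2 ratio of -0.33 (-0.56 to -0.14) and weaker sites -0.17 (-0.47 to 0.00). Stronger and weaker were set by the vehicle numbers, and a weaker site forms a pair here only if it was still called, and both favour this order.

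**Figure D4:**
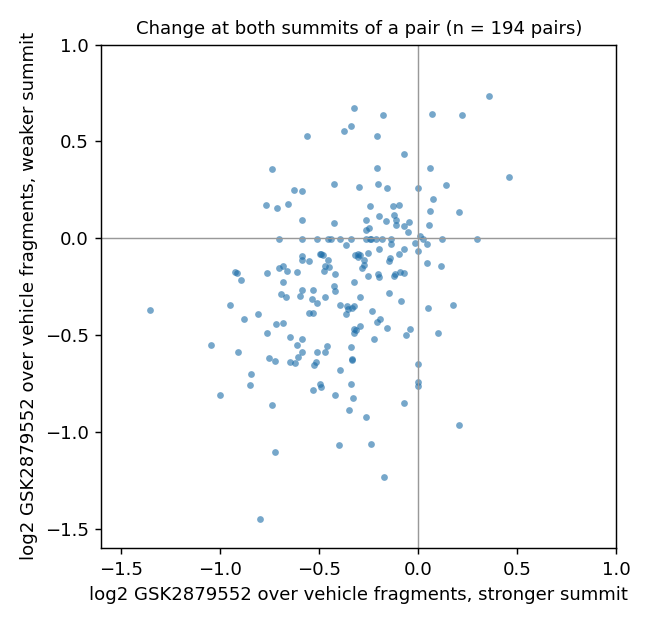
Depth-scaled log2 ratio of GSK2879552 over vehicle fragments at the stronger vehicle summit (horizontal axis) and at the weaker (vertical axis), 1 point for each of 194 tandem pairs outside high background with a partner peak at both sites. The lower left area, where both sites had fewer fragments in GSK2879552, holds most points, and the cloud is wide, with a Spearman rho of 0.27.

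Ratios at retained peaks beside an uncalled one, set against those in pairs with both retained, changed direction with strength. Among sites with 35 or more vehicle fragments outside high background, the median log2 ratio was -0.50 (-0.73 to -0.27) at 65 peaks whose neighbour was not retained, against -0.30 (-0.53 to -0.08) at 137 peaks in pairs with both retained. The order-statistic 95% intervals of these medians were -0.62 to -0.43 and -0.37 to -0.23. They take the peaks of 1 library per group as units, and peaks are not replicates, so no difference is read from them. The local background also differed, with vehicle medians of 3.90 and 5.58 fragments, and its part was not tested. For 23 to 34 vehicle fragments the medians were -0.40 at 79 peaks and -0.35 at 121, and for up to 22 fragments -0.10 at 107 and -0.18 at 138, with intervals that overlapped.

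Tandem sites had more fragments than the most isolated vehicle peaks, and a higher local background than other vehicle peaks. Their summits had a median of 22 fragments (16 to 35), against 21 (15 to 32) at 5206 peaks with the nearest summit over 1 kb and up to 10 kb away and 17 (13 to 26) at 14743 peaks farther from any other. Local backgrounds had medians of 2.43, 2.12 and 1.52 fragments in the same order. The background was at its floor, the genome-wide level, at 0.358% of tandem peaks, 3.34% of the middle set and 13.6% of the most isolated set. The authors' fold enrichment, which divides by that background, had medians of 6.09, 6.82 and 7.21. Whether reads of one tandem site enter the background of the other depends on whether a control library was used, which the sources used here do not state. For 21 to 30 fragments outside high background the median −log10 p was 16.3 at tandem peaks and 19.6 at all other peaks.

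Whether tandem sites were retained more or less often than other sites of equal strength depended on the measure of strength. At 21 to 30 vehicle fragments outside high background, 204 of 279 tandem peaks were retained (73.1%, 67.5 to 78.2), against 3612 of 4325 other peaks (83.5%, 82.4 to 84.6). For 16 to 20 fragments the shares were 46.7% (40.4 to 53.2) of 246 tandem and 58.9% (57.4 to 60.4) of 4420 other peaks. At 10 to 12 and 13 to 15 fragments they were within each other's counting error, 25.3% and 38.8% of tandem peaks against 23.1% and 38.2% of other peaks. Over 10 bins of equal fragments the tandem share was lower in 9 and higher in 1, by a weighted mean of -6.03 percentage points (-8.49 to -3.57). With bins of equal −log10 p instead, it was higher in 7, lower in 2 and equal at 100% in the strongest, by a mean of 4.28 points (1.89 to 6.68). No advantage or loss particular to tandem sites can be read from values that change direction in this way.

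**Figure D5:**
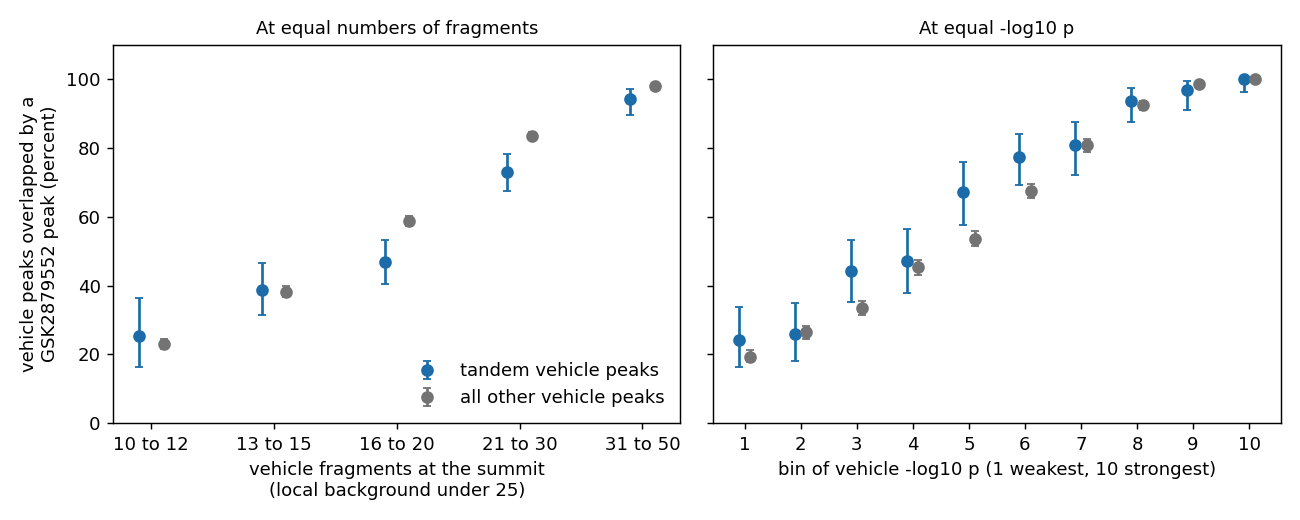
Share of vehicle peaks overlapped by a GSK2879552 peak (vertical axis, percent) for tandem peaks (blue) and all other vehicle peaks (grey), with exact 95% binomial intervals as bars. The left panel groups peaks outside high background by vehicle fragments at the summit, where tandem peaks sit below the others from 16 fragments on, and the right panel groups all peaks into 10 bins of vehicle −log10 p, where tandem peaks sit above the others in 7 bins.

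Tandem sites were spread over all 23 chromosomes and were most frequent on chromosome 10. Outside high background they made up 8.42% (6.85 to 10.2) of the vehicle peaks on chromosome 10, against 4.82% (4.53 to 5.13) of those on the other chromosomes. The pair counts that follow include high background, where 13 of 106 tandem peaks on chromosome 10, 15 of 114 on chromosome 2 and 6 of 74 on chromosome 8 lay. Over all 580 pairs, 43.3% kept both peaks, 44.3% kept 1 and 12.4% kept neither. Chromosome 10 held 57 pairs, of which 33 kept both peaks, 21 kept 1 and 3 kept neither. Chromosome 2 held the most pairs, 61, with 28, 25 and 8 in these classes, and chromosome 8 held 38 pairs with 22, 14 and 2. On chromosome X, 7 of 19 pairs kept neither peak, 3 of them from the single run of 4 already described. Chromosome 13 was low in tandem peaks, at 14 of 548 (2.55%, 1.40 to 4.25), and chromosome 22 held 1 pair.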

How the data were processed

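FOXA2 ChIP-seq peak lists of PC3 cells were analysed, 1 per group. MACS2 2.1.2, BWA 0.7.2 and SAMtools 0.1.18 are listed in the submitters' processing notes, with the hg19 (GRCh37) build; the options, threshold, duplicate handling and any control library are not stated there. The deposited fold is the ratio of summit fragments to local background, each with a pseudocount of 1. The authors' peak caller computed the deposited −log10 p-value and q-value, and the deposited score restates the −log10 q. The deposited summit offset, another number, was used as given. Fragments were computed from fold and −log10 p as the whole number under 1500 that gave the deposited p; 100% of peaks in both lists matched within 0.001. On simulated data 100% of 2999 GSK2879552 and 100% of 2997 vehicle summits, and 100% of 580 pair classes, were recovered.

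Peaks were kept on chromosomes 1 to 22 and X, which left out 204 GSK2879552 and 243 vehicle peaks. Coordinates are 1-based. Overlaps found by bedtools 2.31.1 were equal in number; Python 3.11.15 with scipy 1.17.1 was used. Partners were mutual best overlaps. Fragment ratios were scaled by the floors of the background, 1.082 in GSK2879552 and 1.079 in vehicle. If no control library was used, these correspond to 6.44 and 6.17 reads per kb. Medians carry intervals from binomial order statistics, and the mean over bins a normal approximation from binomial variances. Named pairs were the 10, 6 and 6 highest by −log10 p of the weaker or uncalled peak in the 3 classes outside high background, the 3 runs with most summits (ties ordered by summed −log10 p), and the pairs at the limit of the rule. The members, limits and lists were chosen with earlier results of these data known. Alternatives covered thresholds, overlap rules, spacing limits and high background. Sequence, repeats, centromeres and genes at the sites were not analysed here, since no hg19 genome or annotation was used.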

Additional observations from a re-analysis of the deposited data

How the results depend on the processing

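Of 82 values computed under alternatives, 51 stayed within the interval of the reported value, or within 1.5 times a reported count. The mean difference between tandem and other peaks changed direction with bins of −log10 p, to 4.28 points, and to 3.04 points with high background also left out (chosen after seeing the data). It was -8.80 points with summits within 100 bp as the rule of overlap. That rule gave 35% of pairs with both peaks retained and 49.8% with 1, 59.8% of tandem peaks, 76.4% of stronger and 43.4% of weaker peaks. When each list was held to −log10 q of 10 or more, both peaks were retained in 36.9% of pairs and neither in 16.9%, with 58.5% of tandem peaks and 73.1% of stronger peaks, and 73 GSK2879552 against 160 vehicle pairs, a ratio of 0.456. A spacing of up to 500 bp gave 32.8% with both, 48.7% with 1 and 18.5% with neither, 57.3% of tandem peaks, 75.1% of stronger and 39.2% of weaker peaks, and 113 GSK2879552 against 189 vehicle pairs. Up to 2000 bp there were 612 and 1089 pairs. Vehicle cut to equal length gave 278 pairs and a ratio of 1.19. Peaks in place of pairs numbered 626 in GSK2879552 and 1116 in vehicle. Runs of exactly 2 kept both peaks in 39.2%. Without high background the median log2 ratio at tandem peaks was -0.30, against -0.25 with it. Stricter rules leave fewer peaks or overlaps by construction; the cause of other moves was not tested. No paired analysis was possible because 1 list stands for the lanes of a group, so no lane could be left out either. Weak summits rest on few fragments, at least 8 in tandem peaks, so depth limits what can be said of uncalled sites.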
